A study of Mus musculus with 2 samples.

Results

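Kinetochores are the protein assemblies that join each chromosome to the mitotic spindle, and the spindle checkpoint holds the cell in metaphase until every kinetochore is attached. The set described here holds 38 genes of these structures out of 27664 named genes on the array. They were chosen by name: every noncontrol probe whose gene name in the array files is 1 of the 38 symbols, which gave 57 probes. By role, 12 were placed in the inner kinetochore, 5 in the inner centromere, 13 in the outer kinetochore and 8 in the checkpoint. The inner kinetochore group includes Hjurp and Oip5, which serve to load the centromere histone CENP-A.

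RNA came from CD4+ T cells sorted from spleen cell cultures of female OVA-TCR-Tg mice, whose T cells carry a transgenic receptor for ovalbumin (OVA). In the naive-only culture, spleen cells at 2500000 cells/mL were stimulated with OVA at 0.1 mg/mL for 24 h. In the co-culture, spleen cells first stimulated with the bacterial superantigen TSST-1 at 0.1 μg/mL, which the labels call anergic, were mixed with an equal number of untreated OVA-TCR-Tg spleen cells (1250000 cells/mL) and given the same OVA for the same 24 h. The labels do not say that the sort parted the 2 kinds of cell in the mixture, nor how many mice were pooled, nor the promoter of the transgene. Each group was read on 1 single-colour array, so there is no replicate check, no test was possible, and no difference below can be set against the spread between cultures. Levels are log2 signals relative to the 75th percentile of noncontrol probes on that array. Differences are co-culture minus naive-only, and the error beside one is the scanner software's technical error alone.

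Inside a dividing cell, the histone variant CENP-A marks the centromere, and a set of inner kinetochore proteins binds to it throughout the cell cycle. On this base the outer kinetochore is built as mitosis begins, with the NDC80 complex holding the microtubules. Checkpoint kinases and MAD and BUB proteins gather at unattached kinetochores and block CDC20, the activator of the anaphase-promoting complex. Many of these genes are switched on only as cells approach mitosis, and their transcripts are known to be abundant in proliferating T cells and scarce in resting ones.

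As a set, the genes were higher on the co-culture array. The scanner software called 37 of the 38 well above background on each array, and such genes are termed measured here. Of these, 26 exceeded their naive-only level by 2-fold or more, 10 lay within 2-fold and 1, Zwint, was 2-fold or more below it. Among all 14378 measured genes, 7.72% were higher by this limit and 5.54% lower. At 4-fold, 14 members were higher, against 2.15% of all measured genes. The median log2 difference of the members was 1.60, a 3.03-fold higher level, while over all measured genes it was -0.05 with quartiles of -0.37 and 0.33. The members' own quartiles were 0.82 and 2.16, and 35 of the 37 differences were positive. Technical errors of the measured members ran from 0.20 to 0.23. In bulk RNA, fewer cells carrying a transcript and less of it per cell cannot be told apart.

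**Figure D1:**
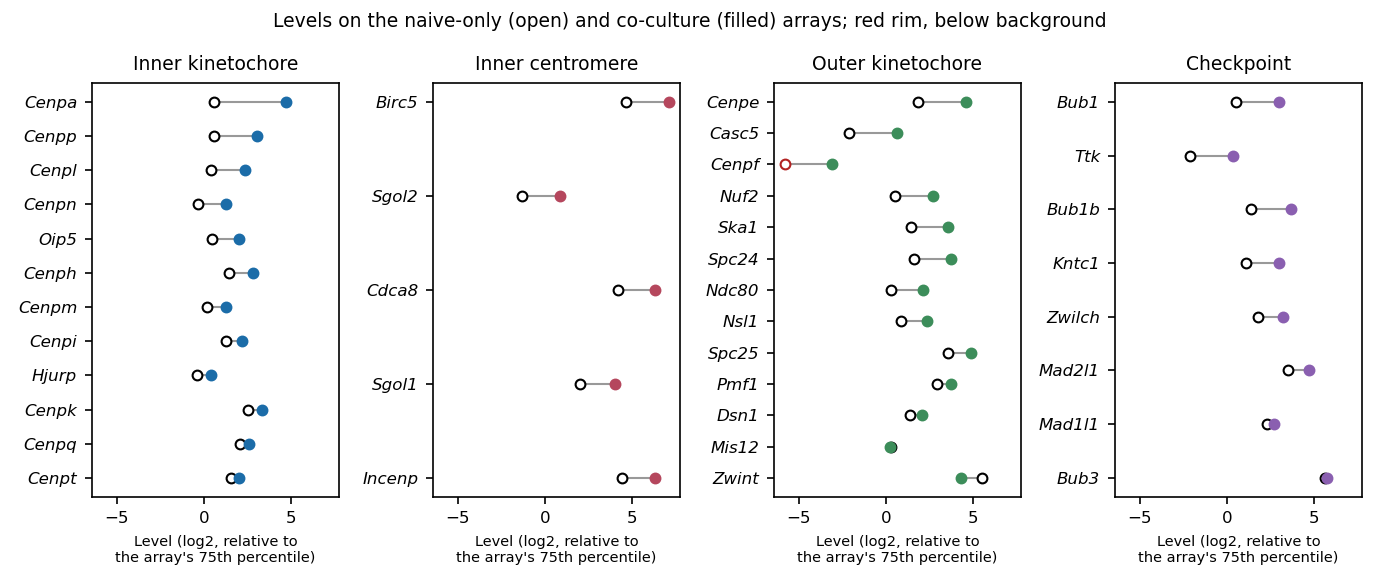
Level of each member in naive-only (open) and co-culture (filled) cells, in log2 units relative to the array's 75th percentile, with 1 array per group and genes ordered within each role by their difference. The filled point lies to the right for all members but Mis12 and Zwint; probes differ in brightness, so levels are compared only within a gene.

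The arrays also differed in markers of other spleen cells. Of 6 B cell markers, the 5 measured were all lower in the co-culture by 2-fold or more, among them Ms4a1 at -5.03, Blnk at -2.19, Cd79a at -1.76 and Cd79b at -1.46. The sixth, Pax5, cleared background only in the naive-only sample. Summed over the 6 probes, the B cell signal was 14181 in naive-only and 3279 in co-culture cells, and the 5 measured markers were above background in both. Of 7 myeloid and dendritic markers, 3 were at least 2-fold lower, Flt3 (-2.87), Cd14 (-1.71) and Lyz2 (-1.12). Summed over all 7 probes, the signal was 4601 and 4711. Itgam, the brightest of the 7, was the only 1 that was higher, at 3.15 and 3.52, a difference of 0.37. Both measured red cell markers, Hba-a1 (-1.09) and Hbb-b1 (-1.18), were lower, and Alas2 did not clear background in either sample. Lyz2, Hba-a1 and Hbb-b1 are dim and lay within 2-fold with normexp background correction (-0.38, -0.70 and -0.63), and Flt3 came to -1.47. The 7 CD4 T cell markers with a probe lay within 2-fold, with summed signals of 226694 and 235254. Of them, 5 were higher and 2 lower, with Cd3d and Cd3g at 0.90, Cd28 at -0.71 and Cd5 at -0.92. Cd4 was at 5.54 and 5.90 and Cd3e at 6.11 and 6.48, so the labelled cell type carried its defining markers on both arrays. Of the CD8 genes, which mark the other main T cell lineage, Cd8a stood at -2.67 and -2.16 and Cd8b1 at -0.71 and -1.26, in opposite directions. The dimmest probes well above background lay at -4.03 and -3.90. The part of these markers in the results below was not tested.

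Since many members differed together, the promoters of several are shown. RefSeq windows of 300 bases, from 250 before to 50 after the start of transcription (GRCm38.p6), were found for 33 of the 38 members. Incenp, Ska1, Spc24, Nsl1 and Zwilch had none. Below are bases -120 to 30, counted from the start, for the 4 members with the largest differences among those that were measured on both arrays and have a window. They are followed by Cdca8, Ttk and Kntc1, chosen after their motifs were seen, and by Bub3 and Mis12, which did not differ by 2-fold. Capitals mark a CCAAT box (CCAAT or ATTGG) or a match to the cell cycle genes homology region, CHR (TTTGAA or TTCAAA).
Cenpa, chr5:30666766-30666915, plus strand: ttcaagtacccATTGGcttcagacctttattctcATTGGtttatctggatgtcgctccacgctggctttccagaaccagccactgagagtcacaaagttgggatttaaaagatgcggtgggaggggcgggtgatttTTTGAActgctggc
Cenpe, chr3:135212443-135212592, plus strand: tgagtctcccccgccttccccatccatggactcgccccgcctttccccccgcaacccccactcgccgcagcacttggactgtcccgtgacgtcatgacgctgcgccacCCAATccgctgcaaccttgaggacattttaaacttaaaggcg
Casc5 (Knl1), chr2:119046999-119047148, plus strand: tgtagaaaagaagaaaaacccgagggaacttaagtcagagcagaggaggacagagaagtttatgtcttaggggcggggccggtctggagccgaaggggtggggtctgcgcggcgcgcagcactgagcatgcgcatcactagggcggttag
Cenpp, chr13:49652702-49652851, minus strand: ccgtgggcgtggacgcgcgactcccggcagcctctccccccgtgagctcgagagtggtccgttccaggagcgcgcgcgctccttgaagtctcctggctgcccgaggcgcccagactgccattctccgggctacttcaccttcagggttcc
Cdca8, chr4:124936888-124937037, minus strand: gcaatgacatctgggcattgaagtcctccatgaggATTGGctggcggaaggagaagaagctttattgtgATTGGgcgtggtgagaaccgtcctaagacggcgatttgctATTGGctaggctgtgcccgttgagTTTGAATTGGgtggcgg
Ttk, chr9:83834569-83834718, plus strand: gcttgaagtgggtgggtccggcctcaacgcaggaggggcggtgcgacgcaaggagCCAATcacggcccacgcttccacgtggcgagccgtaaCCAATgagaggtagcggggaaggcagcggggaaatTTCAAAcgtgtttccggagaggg
Kntc1, chr5:123749606-123749755, plus strand: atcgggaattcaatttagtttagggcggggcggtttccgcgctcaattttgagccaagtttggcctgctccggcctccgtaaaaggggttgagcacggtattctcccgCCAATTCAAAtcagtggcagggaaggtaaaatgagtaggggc
Bub3, chr7:131560250-131560399, plus strand: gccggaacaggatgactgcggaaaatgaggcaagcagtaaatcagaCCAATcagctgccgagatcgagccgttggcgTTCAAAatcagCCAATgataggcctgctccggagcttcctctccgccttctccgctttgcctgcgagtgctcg
Mis12, chr11:71019491-71019640, plus strand: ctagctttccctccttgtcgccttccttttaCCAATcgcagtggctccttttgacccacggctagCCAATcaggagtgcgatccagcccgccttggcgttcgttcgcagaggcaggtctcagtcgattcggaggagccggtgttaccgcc

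The CHR is known as the element through which MuvB complexes hold mitotic genes silent in resting cells and later turn them on, and the CCAAT box is bound by NF-Y. In Cenpa, the CHR match began at base 17 after the start, with CCAAT boxes beginning at -109 and -86. Ttk had the same order, with CCAAT boxes at -65 and -28 and a CHR match at 8. In Cdca8, a CHR match at 14 shared a base with the last of 4 CCAAT boxes, and in Kntc1 a CCAAT box at -12 shared a base with a CHR match at -8. The Casc5 match lay at 32, beyond the bases shown. Cenpe had a CCAAT box at -12 and no CHR match. No letters of either kind were found in the windows of Cenpp, Birc5, Nuf2, Mad2l1, Dsn1, Cenpt and Mad1l1. Bub3, with hardly any difference between the arrays, had a CHR match at -43 between CCAAT boxes at -74 and -32. Mis12 had 4 CCAAT boxes and no CHR match.

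Over the 33 members with a window, 15 (45.5%) held a CHR match on either strand, against 20.2% of 27025 genes with a window and 14.6% of 9798 measured genes. Of the 15, 13 had it no more than 50 bases before the start or after it. A CCAAT box stood in 24 members (72.7%), against 41.1% of all and 43.1% of measured genes, and both kinds of match in 13 (39.4%), against 8.97% and 7.23%. An E2F match (TTTCCCGC, TTTCGCGC, TTTGCCGC or TTTGGCGC, either strand) stood in 3 members (9.09%) and in 4.67% of measured genes. Among members at least 2-fold higher, 11 of 21 held a CHR match and 15 of 21 a CCAAT box. Among the other measured members these were 3 of 11 and 8 of 11, so CCAAT boxes were about as frequent whether or not the gene was past 2-fold. Genes with several start sites were counted if any window matched. These are matches of letters, and no binding was measured.

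**Figure D2:**
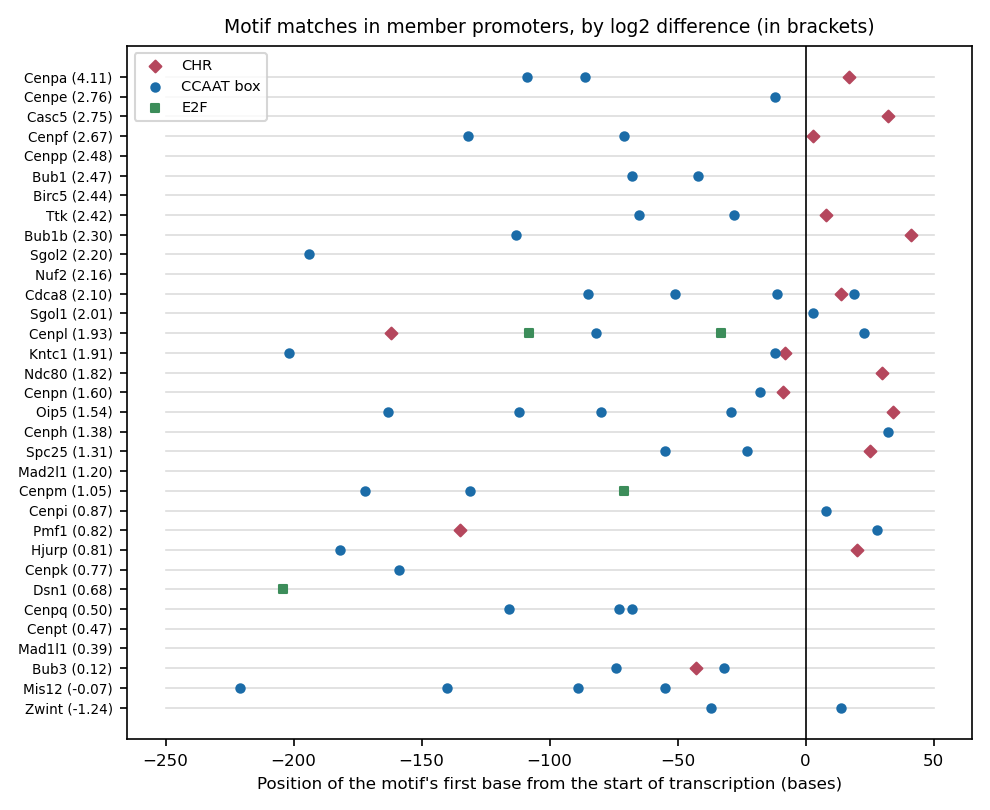
Position of each CHR, CCAAT box and E2F match in the promoter windows of 33 members, in bases from the start of transcription, with genes ordered by log2 difference (in brackets; for Cenpf below background on the naive-only array). Where a gene has several windows the first on the chromosome is drawn; CHR matches cluster near or just after the start, and CCAAT boxes lie mostly before it.

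The inner kinetochore was higher in every one of its 12 measured genes, by 1.38-fold to 17.3-fold, with a median of 1.22. Of them, 7 were at least 2-fold higher. Cenpa, which encodes the centromere histone CENP-A itself, had the largest difference of the whole set. Its level was 0.58 in naive-only and 4.69 in co-culture cells, a difference of 4.11 ± 0.20, or 17.3-fold, and it ranked 21 among the 14378 measured genes. Its probe covers 471 bases of chromosome 5 (30974916 to 30975386, mm9), more than the length of the probe itself.

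Genes that load CENP-A onto chromatin were less far apart between the arrays than Cenpa. Oip5, a subunit of the MIS18 complex that licenses the loading, was at 0.47 and 2.01, a difference of 1.54. Hjurp, the chaperone that carries CENP-A, was at -0.42 and 0.39, a difference of 0.81 ± 0.21. A dimmer Hjurp probe gave 1.0, and the last of its 3 probes was above background on the co-culture array alone. Of the partner genes outside the set, Mis18a stood at 0.45.

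Subunits of the constitutive network bound to CENP-A varied within subcomplexes as well as between them. Cenpp was at 0.57 and 3.06, a difference of 2.48 ± 0.20, or 5.59-fold, but its other probe was not above background on either array. Its partners in the CENP-O group lay closer to 0: Cenpq, read by 10 spots of 1 probe, was at 2.07 and 2.57, a difference of 0.50, and Cenpo, Cenpu and Itgb3bp, which are outside the set, were at 0.72, 0.53 and 0.32. Cenpl and Cenpn, which form a pair that binds CENP-A nucleosomes, differed by 1.93 ± 0.20 (0.39 to 2.32) and 1.60 ± 0.21 (-0.33 to 1.27). With normexp background correction Cenpn was at 1.25. The 4 genes of the CENP-H, I, K and M group lay between 0.77 and 1.38, in the order Cenph (1.38), Cenpm (1.05), Cenpi (0.87) and Cenpk (0.77). Without replicates, neighbours in this order cannot be told apart. Cenpm was the member just past 2-fold, from 0.19 to 1.24, a difference of 1.05 ± 0.21, or 2.07-fold (0.96 in log2 with normexp). Cenpi was the member just short of it, from 1.28 to 2.15, a difference of 0.87 ± 0.20, or 1.83-fold. Cenpt, which anchors the NDC80 complex to the inner kinetochore, had the smallest difference of this role, from 1.53 to 2.0, or 0.47 ± 0.20. Its histone-fold partners outside the set were Cenpw at 1.33, Cenpx at 0.10 and Cenps at -0.33.

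The inner centromere genes were higher as a whole and within a narrow range. All 5 were at least 2-fold higher, from 3.73-fold to 5.44-fold, with a median of 2.10. Birc5, which encodes survivin, was at 4.65 and 7.09, a difference of 2.44 ± 0.20, and its 3 probes gave 2.44 to 2.64. Cdca8, which encodes borealin, was at 4.20 and 6.31, a difference of 2.10 ± 0.20. Incenp, the scaffold that binds and activates Aurora B, was at 4.39 and 6.29, a difference of 1.90 ± 0.20, with its 2 overlapping probes at the same value. These 3 proteins form the chromosomal passenger complex with Aurora B, which corrects faulty attachments. The kinase gene Aurkb, outside the set, was at -2.38 and -0.08, a difference of 2.31, or 1.43 with normexp. Sgol1 and Sgol2 (now Sgo1 and Sgo2a) encode shugoshins, which protect the cohesin that joins sister centromeres. Sgol2 was at -1.32 and 0.88, a difference of 2.20 ± 0.21 (1.74 with normexp), and Sgol1 at 2.02 and 4.04, a difference of 2.01 ± 0.20.

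Outer kinetochore genes were the most mixed. Of the 12 measured, 8 were at least 2-fold higher, 3 within 2-fold and 1 lower, with a median of 1.64. Cenpe, the kinesin that carries chromosomes to the metaphase plate, was at 1.82 and 4.58, a difference of 2.76 ± 0.20, or 6.76-fold. Casc5 (now Knl1), the scaffold that recruits the BUB proteins, was at -2.10 and 0.65, a difference of 2.75 ± 0.23, or 6.72-fold. Casc5 is dim on the naive-only array, and with normexp its fold was 3.81. Its other probe was above background on the co-culture array alone.

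Cenpf, a large corona protein gene, was the member not measured on both arrays. Its naive-only signal, at -5.78, was not well above background, and its co-culture signal was -3.11. Against the dimmest naive-only probe well above background (-4.03), Cenpf was at least 1.88-fold higher.

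All 4 subunits of the NDC80 complex were at least 2-fold higher. Nuf2 was at 0.52 and 2.67, a difference of 2.16 ± 0.20, while its other 2 probes were not above background on either array. Spc24 differed by 2.13, Ndc80 by 1.82 and Spc25 by 1.31. Ska1, whose complex helps NDC80 follow shrinking microtubules, differed by 2.14, and its partners outside the set, Ska3 and Ska2, by 1.44 and 1.14 (Ska2 by 0.71 with normexp).

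The MIS12 complex, which links NDC80 to the chromatin side, differed less, with a median of 0.75 over its 4 genes against 1.97 over the NDC80 genes. Nsl1 was at 1.47 and Pmf1 and Dsn1 within 2-fold, at 0.82 and 0.68. Mis12 was at 0.32 and 0.24, a difference of -0.07 ± 0.21, which is smaller than its technical error. The 2 complexes overlap, since Nsl1 lies above Spc25.

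Zwint, which binds the Casc5 product and helps to bring in the checkpoint complex RZZ, was the member lower on the co-culture array. Its brighter probe, on chromosome 10 at 72137537 to 72137596 (mm9), was at 5.52 and 4.28, a difference of -1.24 ± 0.20, or 2.36-fold lower. Its other probe, at 72131730 to 72131789, was at 4.54 and 4.30, a difference of -0.24 ± 0.20. Only the dimmer probe has an accession in the RefSeq table. Both probes were negative, but they differ by 0.997, the widest gap among the 12 members with several measured probes, and their mean of -0.74 is within 2-fold. The call for Zwint therefore holds for 1 probe of 2.

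**Figure D3:**
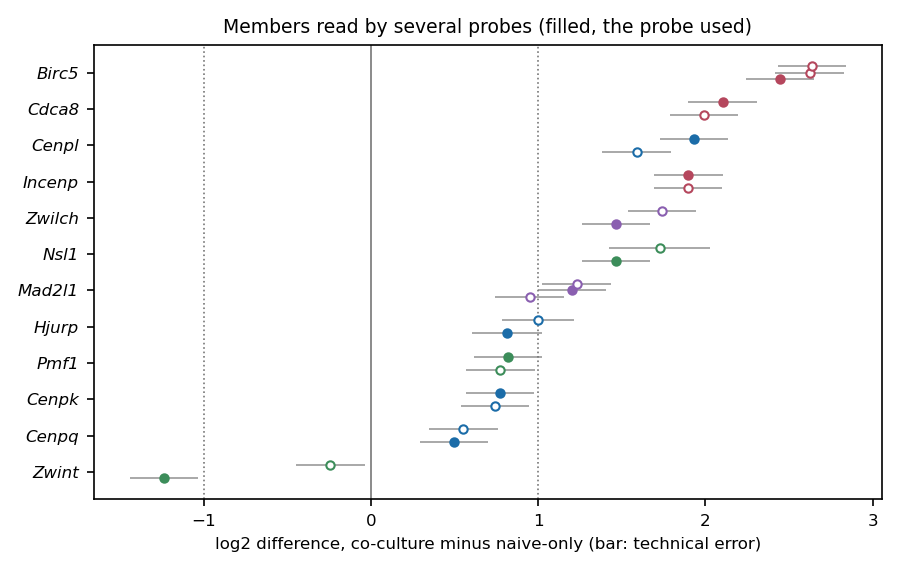
Log2 difference of each measured probe for the 12 members with several, with the technical error as a bar and the probe used in the text filled. Probes of a gene lie within 0.34 of each other except for Zwint, whose probes stand at -1.24 and -0.24.

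Of the 8 checkpoint genes, 6 were at least 2-fold higher and 2 lay within 2-fold, with a median of 1.69. The kinases led. Bub1, which phosphorylates centromeric histone H2A, was read by 10 spots with an SD between spots of 0.059 and 0.053. It was at 0.52 and 2.99, a difference of 2.47 ± 0.20, or 5.54-fold. Ttk, the MPS1 kinase that starts checkpoint signalling, was at -2.09 and 0.32, a difference of 2.42 ± 0.22 (1.65 with normexp). Bub1b, which encodes BUBR1 of the mitotic checkpoint complex, was at 1.39 and 3.69, a difference of 2.30 ± 0.20.

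Of the RZZ complex, which brings dynein and MAD1 to kinetochores, Kntc1 was at 1.1 and 3.0, a difference of 1.91, and Zwilch at 1.75 and 3.22, a difference of 1.47. The third subunit gene, Zw10, which also serves membrane traffic and is outside the set, was at -0.29. Mad2l1, the MAD2 protein that captures CDC20, was at 3.51 and 4.71, a difference of 1.20 ± 0.20, and its 3 probes gave 0.95 to 1.23. Mad1l1, the MAD1 platform for MAD2, differed by 0.39. Bub3, which carries BUB1 and BUBR1 to kinetochores, had the smallest difference of this role, from 5.60 to 5.72, or 0.12 ± 0.20, within its technical error.

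**Figure D4:**
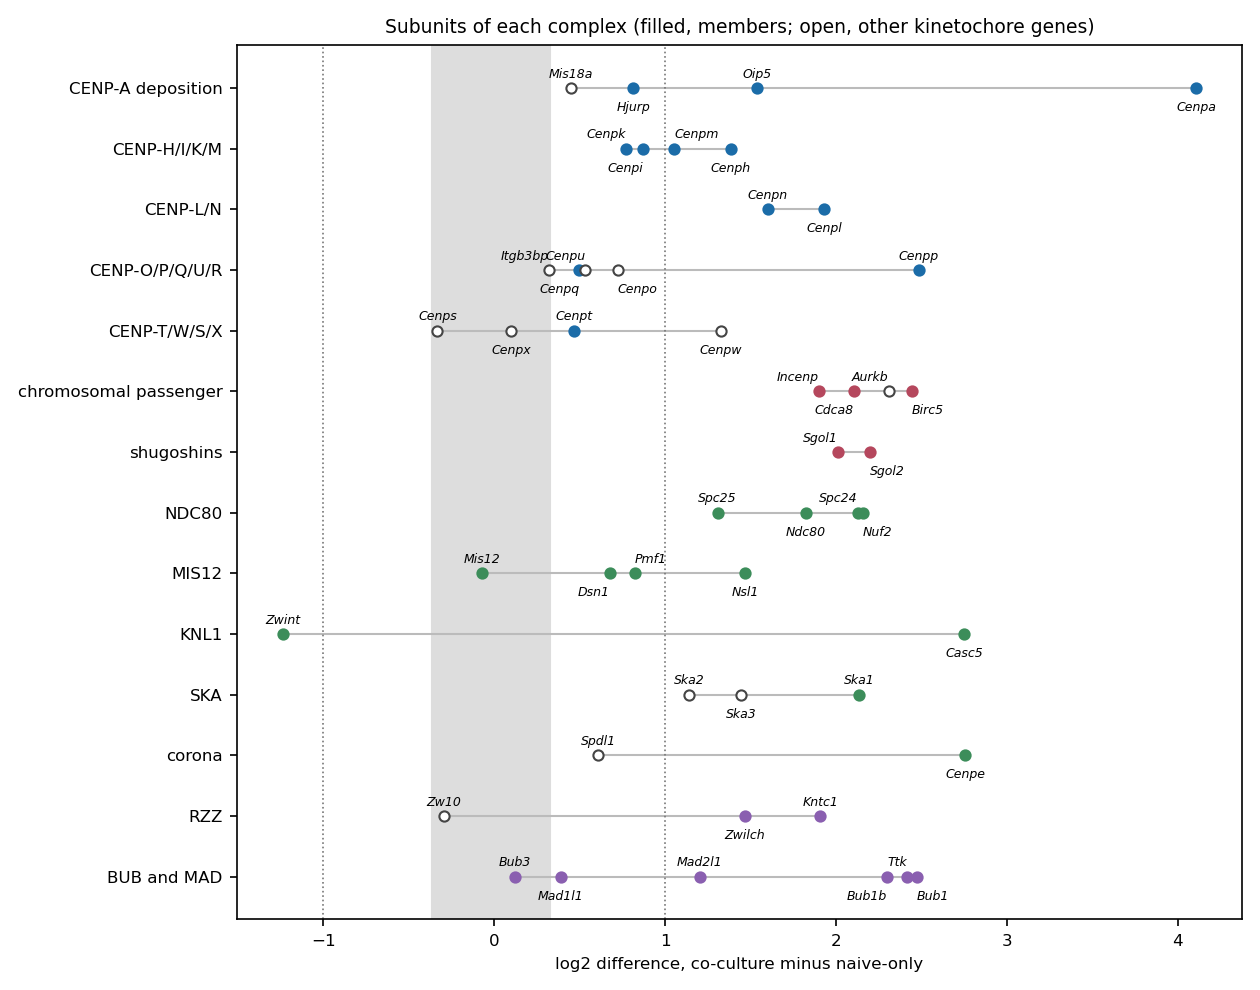
Log2 difference of measured subunits of each complex (filled, members; open, kinetochore genes outside the set), with the quartiles of all measured genes shaded and 2-fold limits dotted. CENP-L/N, chromosomal passenger, shugoshin, NDC80 and SKA genes all lie to the right of 1, whereas the MIS12, CENP-O, CENP-T, RZZ and BUB and MAD groups reach into or near the shaded band.

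Kinetochore genes outside the set were higher less uniformly. Of 24 listed, all were measured, 9 were at least 2-fold higher (7.72% over all measured genes) and none was at least 2-fold lower, with a median of 0.57. With normexp 7 were higher (5.55% over all measured genes), as Ska2 (0.71) and Gsg2 (0.98) came within 2-fold. The 4 with the largest differences were Plk1, the polo-like kinase of mitosis (3.42), Kif2c, a microtubule-depolymerising kinesin of the centromere (2.71), Cdc20, the target of the checkpoint (2.59), and Aurkb (2.31). Genes that load and run the replication fork were closer to 0. None of 14 was past 2-fold in either direction, from Mcm4 (-0.44) to Pola1 (0.48), with a median of 0.10. Summed over the listed probes, their signal on the co-culture array was 0.907 times that on the naive-only array, against 2.59 times for the 38 members. By role, this ratio was 3.08 for the inner kinetochore, 4.56 for the inner centromere, 1.62 for the outer kinetochore and 1.68 for the checkpoint. It was 1.92 for the 24 kinetochore genes outside the set. Such sums follow the brightest probes, so these ratios do not rank the roles. On the naive-only array, the Zwint probe used gave 13722.5 of the outer kinetochore sum of 24765. Bub3 gave 14508 of the checkpoint sum of 22311, and its signal was 15868 on the co-culture array. The difference between these lists was not tested, as each group has 1 array.

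**Figure D5:**
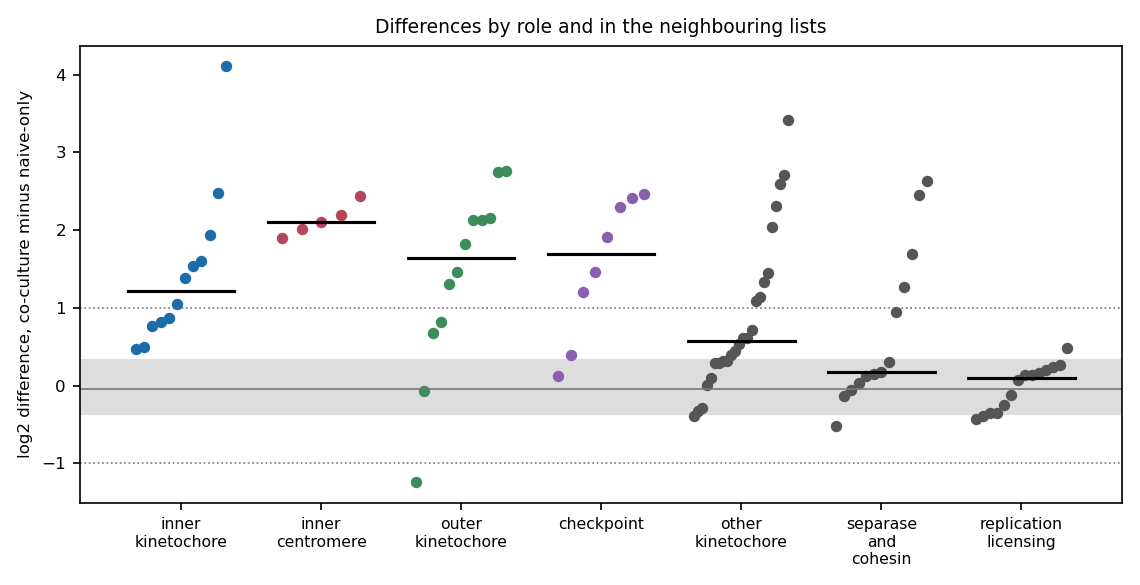
Log2 difference of each measured gene by role (coloured) and in 3 neighbouring lists (grey), with list medians as black bars, the quartiles and median of all measured genes as a band and line, and 2-fold limits dotted. The role medians lie between 1.22 and 2.10, while every replication gene lies inside the 2-fold limits.

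Among the 37 measured members, the Spearman correlation of the difference with the mean level was -0.077, and with the naive-only level, which also enters the difference, it was -0.32. Both are descriptions across genes that share the same arrays. Of the 12 members with several measured probes, all had probes of 1 sign, with a median gap of 0.19 between the lowest and highest probe, as over the 3580 genes of the array with several measured probes (0.19).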

How the data were processed

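Expression was measured on 2 single-colour Agilent arrays, 1 per group, named from the sample titles. Per the labels' protocols, RNA was amplified (Ovation V2) and labelled with Cy3. The intensity of each spot comes from Feature Extraction 10.7.1.1, per the file headers, with background subtracted and spatial trends removed within each array; the submitters' processing notes name 9.5.1.1. The value table the authors deposited holds linear intensity normalized between arrays, with the same distribution in both columns.

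From these files, log2 of the processed signal was averaged over a probe's spots and scaled to each array's 75th percentile. A gene was read by its brightest probe, taken on the mean of the arrays without using the difference. Names followed the array files, updated through RefSeq accessions (GRCm38.p6) for genes outside the set. No spot was saturated. Coordinates of probes refer to mm9 as the headers give it, and no exon annotation of mm9 was used. No p-value was computed, and the number of arrays limits precision. The members and lists were chosen with earlier results of these data known.

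All members are named; a few listed genes outside the set are counted but not reported by name here. Levels and errors are given for the 3 largest and the smallest difference of each role, and for those nearest to 2-fold; the member measured on 1 array has levels and a bound. Outside the set, up to 4 genes past 2-fold per direction and list were named; other partner subunits, the complexes and the extra promoters were chosen after values were seen. The selection of probes was checked on simulated data. Alternatives were normexp (offset 50), 3 other scalings, the deposited table, outlier spots left out, filters on dim genes, and the mean over a gene's probes. Python 3.11.15, pandas 2.3.3, and R 4.3.3 with limma 3.58.1 were used.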

Additional observations from a re-analysis of the deposited data

How the results depend on the processing

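The median of the members was taken under normexp, 4 scalings (the deposited table among them), outlier spots left out and no dim filter. It ranged from 1.43 (normexp) to 1.71, and 25 to 27 members were at least 2-fold higher. Over all genes, the share higher by this limit ran from 5.55% (normexp) to 8.88% (no dim filter), against 7.72% in the main run. Normexp left 25, without Cenpm (0.96). With the mean over a gene's probes, 26 members were higher, against 7.59% of all measured genes. None of 37 was at least 2-fold lower, a count of 0 against 1, because Zwint came to -0.74. Keeping only brighter genes left fewer genes to count: 23 members with a median of 1.90 and 16 higher, 7 checkpoint genes with a median of 1.47, and 15 kinetochore genes outside the set with 4 higher. Of all brighter genes, 5.05% were higher by this limit. No member past 2-fold changed sign under the alternatives run. In all, 314 of 319 member values moved by less than the technical error. Part of this count was fixed in advance. The filters on dim genes reuse the main differences, and the mean over probes cannot move a member with 1 measured probe. The deposited table nearly repeats quantile normalization, another of the scalings (Cenpa at 4.1156 and 4.1157), so they are hardly separate checks. The 5 that moved more were Casc5 (1.93), Ttk (1.65), Sgol2 (1.74) and Cenpn (1.25) with normexp, and Zwint with the mean over probes. Dim naive-only signals limit the folds of Casc5, Ttk, Sgol2 and Cenpf. No paired analysis was possible because the labels give no replicate numbers and each group has 1 array.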

Other observations

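Cohesin holds sister chromatids together until separase cuts it at anaphase, once the checkpoint is satisfied. Of 13 genes of cohesin and its release, all measured, 4 were higher in the co-culture by 2-fold or more and none lower by as much. Among all measured genes, 7.72% were higher and 5.54% lower by this limit. The median log2 difference of the 13 was 0.18. The 4 act on cohesin in dividing cells: the separase gene Espl1 (0.38 to 3.02, a difference of 2.63), the securin gene Pttg1 (3.99 to 6.45, 2.46), the acetyltransferase gene Esco2 (1.70, or 1.34 with normexp) and the sororin gene Cdca5 (1.26). The core ring and its loader lay within 2-fold, with Smc1a at 0.31, Smc3 at 0.12 and Nipbl at 0.18, and Rad21 at 0.95 closest to 2-fold. Stag2 had the lowest value, -0.52. Each group has 1 array, so these values have no replicate check.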
